A study of Mus musculus with 15 samples.

Results

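Type IV collagen is made from 6 chains, encoded by the genes Col4a1, Col4a2, Col4a3, Col4a4, Col4a5 and Col4a6. The members were chosen by name, with their Ensembl identifiers matched to gene symbols, and all 6 were found among the 55416 genes of the count table. They were followed in 15 RNA-seq libraries of SVI cells, a conditionally immortalised mouse podocyte line, grown on flexible silicone membranes that were either left still or moved by pressure. In experiment 1, 3 unstretched samples were set against 6 samples of low stretch, labelled with a deflection of 5 to 6 mm. In experiment 2, a further 3 unstretched samples were set against 3 samples of high stretch, labelled 7 to 8 mm. The design text gives the amplitudes as 6 mm and 8 mm. Amplitude and experiment change together, so an effect of amplitude and an effect of the experiment cannot be told apart. All groups were the same line with no transgene or drug named in the labels, and nothing in the labels says that replicates were separate cultures. The p-values therefore measure only the spread between these samples, which may be technical.

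Type IV collagen is the network-forming collagen of every basement membrane. Its chains wind into triple helices of 3 fixed kinds: the broadly expressed helix of α1 and α2 chains, the helix of α3, α4 and α5 chains that podocytes lay down in the mature glomerular basement membrane, and a helix of α5 and α6 chains known from the basement membrane of Bowman's capsule and other sites. Trimers form in the endoplasmic reticulum, and the networks are joined outside the cell by sulfilimine bonds and lysyl oxidase cross-links. Loss of the α3, α4 or α5 chain is the cause of Alport syndrome.

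The cells carried part of the podocyte profile. Of 14 podocyte markers, 8 had a mean of at least 1 CPM (counts scaled to a common library size with the trimmed mean of M-values), Synpo and Podxl among them. Nphs1 (nephrin) stayed between 0.203 and 0.985 CPM. All 6 parietal epithelial markers passed 1 CPM, with Pax2 between 170 and 395.1 CPM and Pax8 between 118.1 and 200.4 CPM. Of 7 tubular markers, Lrp2 and Cdh16 passed it, while Umod, Aqp2 and Slc34a1 were at or near 0. Of 7 mesangial markers, 4 had a mean of at least 1 CPM, while Des, Itga8 and Ren1 were below it. Acta2, on that list, ranged from 1150 to 10300 CPM. The summed podocyte markers ranged over 925.7 to 947.4 CPM in unstretched and 859.3 to 1143 CPM in low-stretch samples, and over 1194 to 1300 and 1074 to 1363 CPM in unstretched and high-stretch samples of experiment 2. The sum hides its members. Of 12 podocyte markers tested under low stretch, 7 had a positive and 5 a negative log2 fold change. Of 11 tested under high stretch, 3 were positive and 8 negative. Libraries held between 172211836 and 396658285 counts assigned to genes.

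The 6 genes lie in 3 pairs, each pair head to head on 1 chromosome and read in opposite directions. In the GENCODE M21 annotation of build GRCm38, which is older than the mm39 build named in the submitters' processing notes, Col4a1 lies at chr8:11198423-11312826 on the minus strand and Col4a2 at chr8:11312805-11449287 on the plus strand. Col4a4 lies at chr1:82448423-82586849 (minus) and Col4a3 at chr1:82586921-82722059 (plus). Col4a6 lies at chrX:141165403-141474076 (minus) and Col4a5 at chrX:141475385-141689234 (plus), with 1308 bases between their starts. For Col4a1 with Col4a2 and for Col4a4 with Col4a3 the whole stretch at the paired starts is shown, because both partners share it. For Col4a5 and Col4a6, whose starts lie farther apart, the bases just before each start are shown. They come from RefSeq on GRCm38.p6, whose 300-base start windows matched 5 of the 6 chains. Capitals mark a GC box (GGGCGG or its reverse complement) or a CCAAT box, searched on both strands.
Col4a1 and Col4a2 shared start, chr8:11312805-11312826, plus strand: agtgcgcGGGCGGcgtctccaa
Col4a4 to Col4a3 gap, chr1:82586850-82586920, plus strand: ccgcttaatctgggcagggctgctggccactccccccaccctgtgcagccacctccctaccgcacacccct
Col4a5 upstream, chrX:141475169-141475384, plus strand: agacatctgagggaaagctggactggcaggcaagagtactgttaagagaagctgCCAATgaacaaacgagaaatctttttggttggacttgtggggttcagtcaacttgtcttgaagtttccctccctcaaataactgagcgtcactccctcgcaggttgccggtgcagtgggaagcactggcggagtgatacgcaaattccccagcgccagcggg
Col4a6 upstream, chrX:141474077-141474326, minus strand: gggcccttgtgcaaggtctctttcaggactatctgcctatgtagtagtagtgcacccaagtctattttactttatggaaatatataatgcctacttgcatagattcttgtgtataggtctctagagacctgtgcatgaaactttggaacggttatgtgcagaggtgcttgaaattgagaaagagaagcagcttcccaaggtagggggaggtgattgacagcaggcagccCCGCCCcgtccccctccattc

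The annotated 5′ ends of Col4a1 and Col4a2 overlap by 22 bases, and that overlap holds a GC box. The gap of 71 bases between Col4a4 and Col4a3 is 69.0% G and C and holds neither motif. In the 300-base windows, GGGCGG was found once for Col4a1, 3 times for Col4a2, once each for Col4a5 and Col4a6 and not for Col4a4, and 35.7% of all 32851 windows of that length hold it. CCAAT was found once each for Col4a1, Col4a2 and Col4a5 and is held by 37.4% of windows. Of the other motifs searched, CATTCC (the TEAD motif) was found once, for Col4a6, and is held by 14.7% of windows, while TATAAA (held by 13.6%) had no match in the 5 windows. The AP-1 motif TGANTCA (7.81%) and the homeodomain core TAATTA (5.29%) had none either. The windows of Col4a1 and Col4a2 overlap, so a match can count for both, and a match is only a match of letters.

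The chains stood on very different levels. Levels between genes are given in TPM, an abundance unit corrected for transcript length and library size, and each mean carries its SD. In unstretched cells of experiment 1 (n = 3) Col4a1 was at 1201 ± 170 TPM, Col4a2 at 508 ± 78.3, Col4a5 at 167 ± 27.7 and Col4a6 at 82.1 ± 16.6. The other 2 chains of the glomerular network were far lower, Col4a4 at 0.244 ± 0.0270 TPM and Col4a3 at 0.0503 ± 0.00582 TPM. The same order, Col4a1, Col4a2, Col4a5, Col4a6, Col4a4, Col4a3, held in each of the 15 samples. The ranges of neighbours in this order overlapped in 2 cases: Col4a5 (64.5 to 131.6 TPM) and Col4a6 (51.1 to 82.7 TPM) in unstretched cells of experiment 2, and Col4a4 (0.140 to 0.375 TPM) and Col4a3 (0.0518 to 0.144 TPM) under low stretch.

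As a share of all type IV collagen TPM, Col4a1 and Col4a2 together made up 86.65% to 93.93% over the 15 samples. Col4a5 and Col4a6 made up 6.02% to 13.34%. Col4a3 and Col4a4 together made up 0.00872% to 0.0479%. In this line the α5 transcript was therefore present at 90.55 to 809.4 times the level of the α4 transcript in every sample, on the TPM scale.

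**Figure D1:**
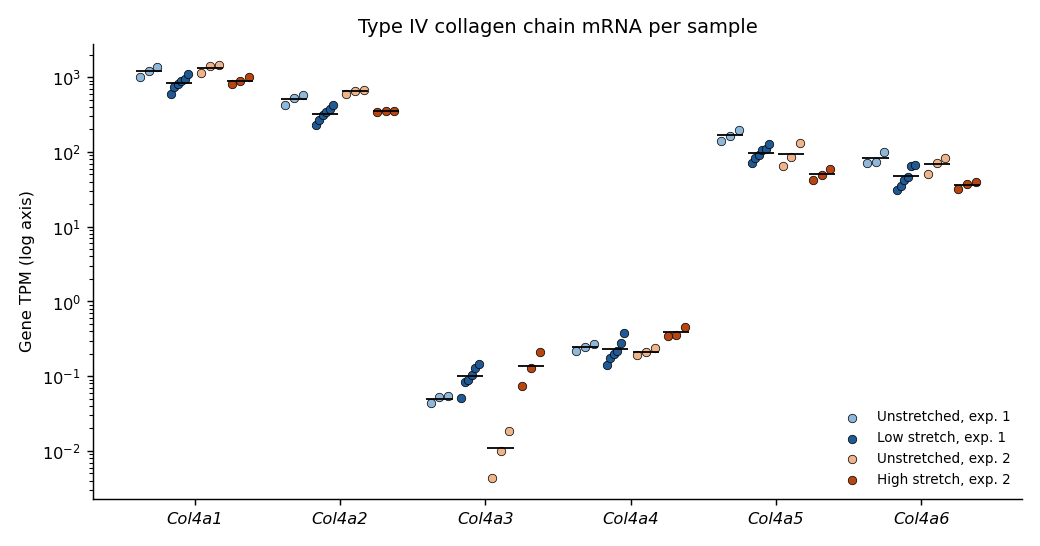
Level of each chain in every sample, in TPM on a log axis, by group (unstretched and low stretch of experiment 1, unstretched and high stretch of experiment 2); points are samples and black bars are group means. Col4a1 lies at 590.1 to 1472 TPM and Col4a3 at 0.00432 to 0.213 TPM.

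The α1 and α2 chains are the 2 partners of the ubiquitous helix. Col4a1 (ENSMUSG00000031502) had 3410, 2874 and 3824 CPM in the unstretched samples of experiment 1, and 1980, 2586 and 3113 CPM as the lowest, median and highest of the 6 low-stretch samples. The groups overlapped, with 1 stretched sample above the lowest unstretched one. In experiment 2 it had 6242, 5598 and 5093 CPM unstretched and 3984, 3909 and 4240 CPM under high stretch, with no overlap. The log2 fold change was -0.43 ± 0.14 (SE; adjusted p = 0.0894) for low and -0.49 ± 0.18 (adjusted p = 0.242) for high stretch, by the quasi-likelihood test of edgeR, adjusted over all genes by the Benjamini-Hochberg method, so neither passed 0.05.

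Col4a2 (ENSMUSG00000031503) had 1731, 1395 and 1908 CPM in unstretched samples of experiment 1, against a lowest, median and highest of 913.8, 1156 and 1458 CPM under low stretch. The highest stretched sample lay above the lowest unstretched one. In experiment 2 the values were 3642, 3503 and 2661 CPM unstretched and 1724, 2013 and 1960 CPM under high stretch, with no overlap. The log2 fold change was -0.54 ± 0.14 (edgeR adjusted p = 0.0514) for low and -0.79 ± 0.20 (adjusted p = 0.0804) for high stretch. Both missed the threshold, the first narrowly.

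Col4a1 and Col4a2 followed each other closely. After the mean of each experiment was subtracted, their log2 CPM had a Pearson r of 0.96 over the 15 samples, which share their libraries and their stretch groups, so the value is a description. Their proportion was not constant on the TPM scale. Col4a1 stood at 1.908 to 2.221 times Col4a2 in unstretched cells of experiment 2 and at 2.353 to 2.807 times under high stretch, without overlap. In experiment 1 the ranges were 2.308 to 2.428 unstretched and 2.392 to 2.926 under low stretch, which overlapped.

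Col4a5 (ENSMUSG00000031274) encodes the chain that both the glomerular helix and the α5 and α6 helix need. It fell under low stretch, by 0.67 on the log2 scale (SE 0.14; edgeR adjusted p = 0.0228). The unstretched samples had 520, 464.2 and 640.2 CPM, and the lowest, median and highest low-stretch samples had 270.7, 340.3 and 430.8 CPM. Every stretched sample lay below every unstretched one. The fall passed in 6 of 9 fits with 1 sample left out in turn. Under high stretch the values were 283.2, 240.6 and 267 CPM against 453.7, 369.3 and 523 CPM unstretched, again without overlap, and the log2 fold change of -0.77 ± 0.19 did not pass (adjusted p = 0.0678).

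Col4a6 (ENSMUSG00000031273), the partner of α5 in the third helix, fell under high stretch by 0.78 on the log2 scale (SE 0.17; edgeR adjusted p = 0.0457). Its values there were 202.4, 196.6 and 211.6 CPM, against 396.6, 307.7 and 344.9 CPM unstretched. The 3 stretched samples lay close together and below all unstretched ones. With 1 sample left out in turn, the fall of Col4a6 passed in 1 of 6 fits. In experiment 1 it had 256.3, 245.1 and 352.4 CPM unstretched and a lowest, median and highest of 116.1, 170.7 and 246 CPM under low stretch. The highest of these lay just above the lowest unstretched value, and the log2 fold change of -0.67 ± 0.22 did not pass (adjusted p = 0.0965). Col4a5 and Col4a6 had a Pearson r of 0.91 over the 15 samples on the same centred scale.

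Col4a3 (ENSMUSG00000079465) was the chain that rose, from a very low level. The unstretched samples of experiment 1 had 78, 80 and 66 counts (0.229, 0.239 and 0.208 CPM). Under low stretch the 6 samples held between 88 and 200 counts, with 0.275, 0.448 and 0.633 CPM as the lowest, median and highest. All stretched samples were above all unstretched ones, and the log2 fold change was 1.00 ± 0.26 (edgeR adjusted p = 0.0495), barely under the threshold. This rise passed in 2 of 9 fits with 1 sample left out in turn. In experiment 2 the unstretched samples had 5, 11 and 25 counts (0.0316, 0.0791 and 0.0929 CPM) and the high-stretch samples 136, 64 and 132 counts (0.562, 0.444 and 0.543 CPM). These groups were far apart, with a log2 fold change of 2.88 ± 0.41 (adjusted p = 0.0124), which passed in 4 of 6 fits with 1 sample left out. In experiment 2 only 2 of 3 unstretched samples were above the low-count cutoff of 0.0449 CPM, against 3 of 3 stretched ones, so Col4a3 entered that test through the group where it was high.

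Col4a4 (ENSMUSG00000067158), read from the other side of the same 71-base gap, gave another picture. It had 1.22, 1.39 and 1.31 CPM unstretched and 0.791, 1.25 and 2.16 CPM as the lowest, median and highest under low stretch. The stretched samples spread to both sides of the unstretched ones, and the log2 fold change was 0.02 ± 0.26 (edgeR adjusted p = 0.970). In experiment 2 it had 1.69, 2.18 and 1.34 CPM unstretched and 2.44, 3.67 and 3.01 CPM under high stretch. The groups did not overlap, yet the log2 fold change of 0.80 ± 0.28 missed the threshold (adjusted p = 0.215).

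Of the 6 chains, then, 1 was called higher (Col4a3) and 1 lower (Col4a5) under low stretch, where 5.45% of all 21672 genes tested were called, 1.85% higher and 3.6% lower. Under high stretch 1 was called higher (Col4a3) and 1 lower (Col4a6), where 3.47% of 18524 genes were called, 1.31% higher and 2.16% lower. Since Col4a3 entered the high-stretch test through the stretched samples, its call there is not read against that share. With DESeq2, 5 chains passed under low stretch (all but Col4a4) and 4 under high stretch (Col4a2, Col4a3, Col4a5 and Col4a6). DESeq2 also called more genes in all, 2694 and 1321 against 1181 and 643 in the main fits. In 1 fit of all 15 samples the adjusted p of Col4a3 under low stretch was 0.0682, and that of Col4a6 under high stretch was 0.0544. In the same fit 3 chains passed under high stretch, Col4a3 with Col4a2 (0.0157) and Col4a5 (0.0132). That fit called 640 genes in all under low and 1488 under high stretch. With DESeq2's size factors in edgeR, Col4a6 under high stretch had 0.0508. Over the chains the median log2 fold change was -0.49 and -0.63, against 0.01 and -0.02 over all genes tested. The sample values of 2 chains under low stretch, Col4a3 and Col4a5, and of all 6 under high stretch did not overlap between groups. That held for 15.9% of all genes tested under low stretch (9.03% higher, 6.84% lower) and 20.9% under high stretch (10.6% higher, 10.3% lower). As with its call, Col4a3 under high stretch is not read against this share.

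**Figure D2:**
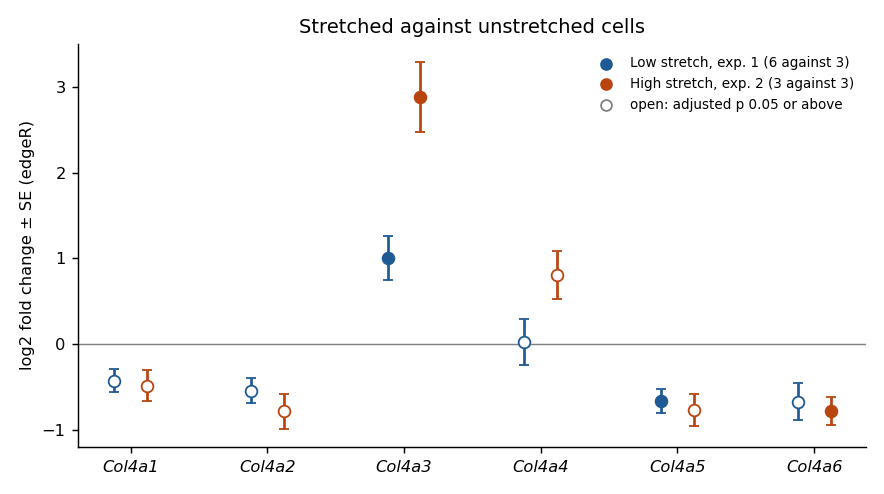
Log2 fold change (stretched against own unstretched samples) of each chain with its SE, from edgeR; the low-stretch and high-stretch comparisons are drawn side by side. Col4a3 lies at 1.00 and 2.88, Col4a4 at 0.02 and 0.80, and the other 4 chains between -0.43 and -0.79.

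The sample codes in the labels form an unbroken series of positions. It was cut here at each unstretched sample into 6 runs, each holding 1 unstretched sample with the stretched samples next to it. The labels do not say whether a run was a plate, a day or a culture. Within the 3 runs of experiment 1 the log2 differences were -0.23, -0.42 and -0.57 for Col4a1, -0.44, -0.52 and -0.61 for Col4a2, and -0.62, -0.66 and -0.66 for Col4a5. They were -0.87, -0.64 and -0.53 for Col4a6 and 1.16, 1.09 and 0.63 for Col4a3. Each of these 5 chains kept its direction in every run, whereas Col4a4 took 0.37, -0.17 and -0.25. With the run as a block, 5 chains were called under low stretch, with edgeR adjusted p of 0.0032 for Col4a1, 0.000895 for Col4a2, 0.0051 for Col4a3, 9.11e-05 for Col4a5 and 0.000729 for Col4a6. In that fit 6106 genes, or 28.2%, were called, against 1181 without the block.

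In experiment 2 the runs gave -0.65, -0.52 and -0.26 for Col4a1, -1.08, -0.80 and -0.44 for Col4a2, -0.68, -0.62 and -0.97 for Col4a5 and -0.97, -0.65 and -0.70 for Col4a6. Col4a3 took 3.87, 2.39 and 2.46 and Col4a4 0.53, 0.75 and 1.16. All 6 chains kept their direction in each of the 3 runs. With the block, Col4a3 (edgeR adjusted p = 4.48e-07), Col4a5 (0.037) and Col4a6 (0.0281) were called, in a fit that called 1546 genes, or 8.35%, against 643 without the block. Col4a3 entered this fit too through the stretched samples, so its call is not read against that share. The calls of experiment 2 depended on single samples: without high-stretch replicate 1 or without high-stretch replicate 3 no chain passed, and without unstretched replicate 3 Col4a2, Col4a3, Col4a5 and Col4a6 did. Over all genes, these fits called 90, 14 and 1421 in that order. In experiment 1 no chain passed without unstretched replicate 1, without unstretched replicate 3 or without low-stretch replicate 4, and 4 passed without low-stretch replicate 5. The genes called in all were 378, 220, 606 and 1630 in that order.

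Reads of Col4a3 may be shared with C430014B12Rik, an antisense gene at chr1:82691928-82725169 on the minus strand that overlaps the 3′ end of Col4a3 (GRCm38). It is named here after its values were seen. The libraries were made with a strand-marking kit, but the strand setting of the counting is not given in the sources used here, so reads of the pair cannot be told apart. C430014B12Rik had 53, 33 and 31 counts unstretched and 48 to 105 counts under low stretch, and 14, 14 and 34 counts unstretched against 124, 57 and 111 under high stretch. It moved with Col4a3 in the same samples, with a log2 fold change of 0.85 ± 0.23 (edgeR adjusted p = 0.0586) for low and 2.09 ± 0.30 (adjusted p = 0.014) for high stretch. Its part in the Col4a3 result was not tested.

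**Figure D3:**
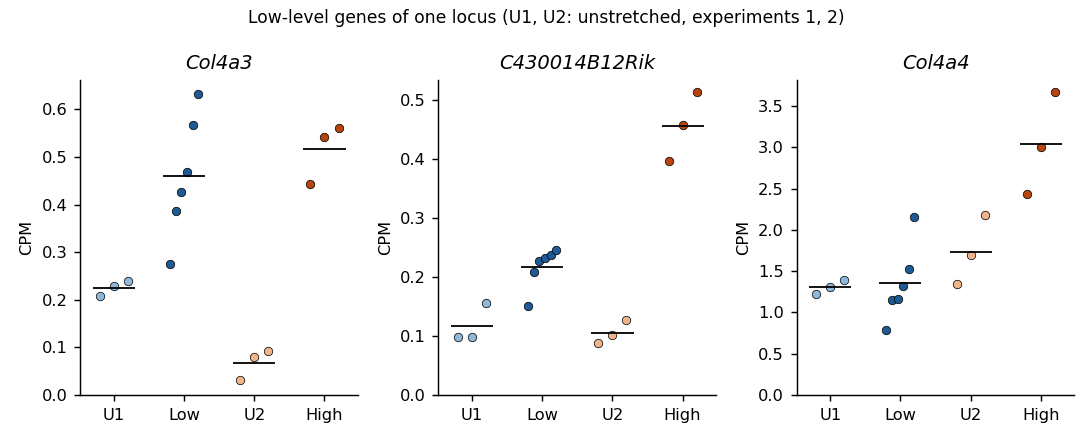
CPM of Col4a3, Col4a4 and the antisense gene C430014B12Rik in each sample on a linear axis, by group; points are samples and black bars group means. In experiment 2 Col4a3 lies at 0.0316 to 0.0929 CPM unstretched and at 0.444 to 0.562 CPM under high stretch; Col4a4 overlaps between groups in experiment 1.

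The comparison of the α1 and α2 pair with the α3, α4 and α5 chains was made as a log2 ratio of summed TPM in each sample, with no test. It was 3.36 ± 0.0682 (SD, n = 3) unstretched and 3.57 ± 0.181 (n = 6) under low stretch, with ranges of 3.297 to 3.432 and 3.378 to 3.823 that overlapped. In experiment 2 it was 4.46 ± 0.388 (n = 3) unstretched and 4.64 ± 0.135 (n = 3) under high stretch, over 4.017 to 4.755 and 4.499 to 4.769. As a fold, the pair stood 10.27, 11.98, 22.46 and 24.94 times above the 3 glomerular chains in these 4 groups. Col4a5 supplied nearly all of the denominator, so the ratio is in effect one of Col4a1 and Col4a2 to Col4a5.

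The change of the ratio was 0.21 in experiment 1, over the SD of either group, and 0.18 in experiment 2, less than the SD of 0.388 among its unstretched samples. Within runs the changes were 0.35, 0.21 and 0.08 under low stretch, all upward. Under high stretch they were -0.10, 0.01 and 0.62, with no common direction. Without unstretched replicate 3 of experiment 2, whose Col4a5 stood at 131.6 TPM against 85.7 and 64.5 in the other 2, the change was -0.04. With Col4a5 left out of the denominator the ratio went the other way, by -0.68 under low and -1.89 under high stretch, since Col4a3 and Col4a4 alone then stood against the pair.

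**Figure D4:**
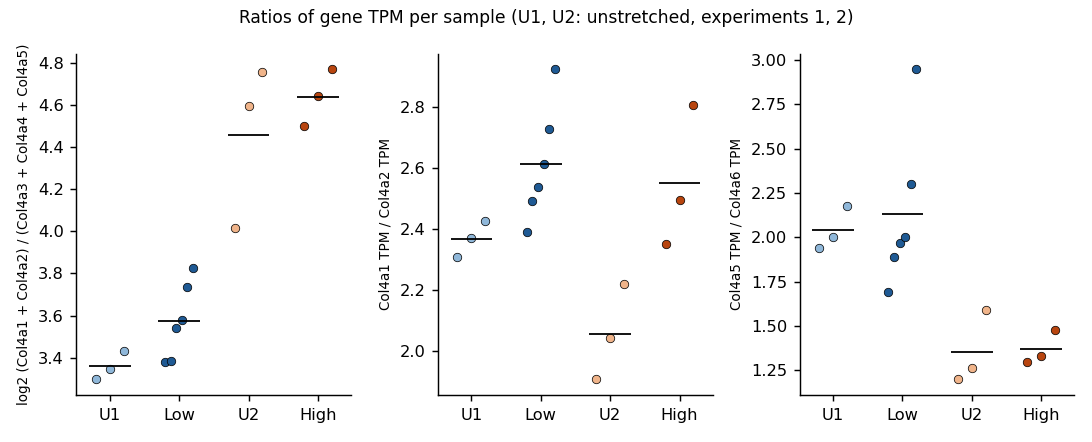
Ratios between chains in each sample from summed TPM, by group; points are samples and black bars group means. The log2 ratio of Col4a1 and Col4a2 to Col4a3, Col4a4 and Col4a5 lies at 3.297 to 3.823 in experiment 1 and 4.017 to 4.769 in experiment 2.

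The unstretched cells of the experiments differed from each other before any stretch. In experiment 2 Col4a1 was higher by a log2 fold change of 0.73 (edgeR adjusted p = 0.0142) and Col4a2 by 0.95 (adjusted p = 0.0074), and Col4a3 was lower, at -1.72 (adjusted p = 0.0074). With only 5 counts in 1 unstretched sample of experiment 2, Col4a3 entered this test through experiment 1, the group where it was high. Col4a4 (0.40, adjusted p = 0.215), Col4a5 (-0.29, adjusted p = 0.230) and Col4a6 (0.28, adjusted p = 0.253) did not pass. Of all genes tested in this contrast 62.5% were called, 29.7% higher and 32.7% lower, so a call here sets no chain apart. The scale matters: by TPM, Col4a1 stood at 1201 ± 170 and 1338 ± 170 in the unstretched samples of experiments 1 and 2, which overlapped, and Col4a5 at 167 ± 27.7 and 93.9 ± 34.3, which did not. This contrast uses the same unstretched samples as both stretch comparisons.

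The difference between the effects of high and low stretch was tested in 1 model of all 15 samples. For Col4a3 it was 1.86 ± 0.44 on the log2 scale (edgeR unadjusted p = 0.00065, adjusted p = 1.0), the largest of the 6 chains. Col4a4 gave 0.76 ± 0.40 (unadjusted p = 0.0786). Col4a1, Col4a2, Col4a5 and Col4a6 lay between -0.27 and -0.08. None of the chains passed, nor did any of 22015 genes (0 of them by edgeR and 0 by DESeq2), while 547, or 2.48%, had an unadjusted p under 0.05.

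Transcript-level TPM described which forms carried these levels. Of 24 chain transcripts in the table, 12 reached a mean of 5% of their gene in at least 1 group. Col4a2-201 and Col4a6-201 each carried nearly all of their gene. Col4a1-201, the full coding form of 6615 bases, carried 77.2% to 79.0% in the 4 group means, and Col4a1-207, a 618-base form of the nonsense-mediated decay class, 20.1% to 21.6%. Col4a5-202 carried 53.6% unstretched and 56.0% under low stretch, then 50.2% unstretched and 52.0% under high stretch. Col4a5-201 carried 39.8%, 36.2%, 46.0% and 43.5% in the same order.

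For usage, each transcript was set against the rest of its gene as a log2 ratio and tested with limma. Of the 5 chain transcripts tested under low stretch and the 4 under high stretch, 0 passed an adjusted p of 0.05, and 0 had an unadjusted p under 0.05. The background was 0.018% of 27822 transcripts called under low and 0.0% of 23498 under high stretch. The lowest adjusted p among chain transcripts was 0.66 under low stretch, for Col4a5-201, with a log2 ratio change of -0.22 ± 0.15 (SE). Col4a3 and Col4a4 were too low for this test. The coding form of Col4a3 alone stood at 0.0438 to 0.0549 TPM unstretched and 0.0518 to 0.144 under low stretch, which overlapped, and at 0.00432 to 0.0184 unstretched and 0.0508 to 0.0858 TPM under high stretch, which did not. The rest of the Col4a3 level under high stretch came from Col4a3-202, a 524-base form of the nonsense-mediated decay class listed above 0 in 2 of the 3 samples.

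Around the chains, genes that modify, fold, bind and cut collagens were read from lists chosen for their roles, with earlier results of these data known. A listed gene need not act on type IV collagen itself. Ddr2 and Bmp1 are listed as a collagen receptor and a procollagen proteinase in general, not for type IV collagen. Beside the counts of these lists, 1.85% of all genes tested were called higher and 3.6% lower under low stretch. Under high stretch the shares were 1.31% and 2.16%. Enzymes that hydroxylate and glycosylate the chains had 13 of 14 genes tested. Under low stretch 2 fell and 0 rose (median log2 fold change -0.06), and under high stretch 1 fell and 0 rose (median -0.04). P3h2, a prolyl 3-hydroxylase that acts on type IV collagen, fell in both, by 0.68 ± 0.14 (edgeR adjusted p = 0.021) from 33.6 to 21.3 CPM and by 1.32 ± 0.28 (adjusted p = 0.0457) from 40.8 to 16.4 CPM. P3h1 fell by 0.35 ± 0.08 (adjusted p = 0.0317) under low stretch. Plod2, a lysyl hydroxylase, stood at log2 fold changes of 0.44 (adjusted p = 0.178, and 0.0214 with the run block) and 0.53 (adjusted p = 0.451).

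Of 9 folding and export genes 0 passed in either direction in either comparison (medians 0.05 and -0.02). Serpinh1, the collagen chaperone HSP47, had -0.17 (edgeR adjusted p = 0.258, and 0.0423 with the run block) and -0.24 (adjusted p = 0.808). Of 6 cross-linking genes, 1 rose and 1 fell in each comparison. Loxl2, a lysyl oxidase-like enzyme that cross-links type IV collagen, rose by 0.91 ± 0.19 (adjusted p = 0.023) and 1.07 ± 0.20 (adjusted p = 0.0277), from 60.1 to 126.7 CPM in the second case. Loxl4 fell, by 1.26 ± 0.31 (adjusted p = 0.0419) and 2.09 ± 0.32 (adjusted p = 0.0155), at under 1 CPM. Pxdn, peroxidasin, which forms the sulfilimine bond, stood at -0.03 (adjusted p = 0.791) and 0.11 (adjusted p = 0.888).

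Among 8 receptors, 1 fell under low and 2 under high stretch, with none higher (medians -0.30 and 0.23). Ddr2, a collagen receptor tyrosine kinase, fell by 1.26 ± 0.18 (edgeR adjusted p = 0.00574) and 1.45 ± 0.28 (adjusted p = 0.0345) from under 1 CPM. Itga1, the α subunit of a type IV collagen integrin, fell under high stretch by 1.88 ± 0.34 (adjusted p = 0.0266), from 95.4 to 26.1 CPM. Its value under low stretch was -1.10 (adjusted p = 0.0874, and 0.000228 with the run block).

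Other basement membrane components were the list with the most calls, among lists chosen with earlier results known. Of 13 tested of 14, 7 fell and 0 rose under low stretch (median -0.57), where 3.6% of all genes were called lower. Under high stretch 3 fell and 0 rose (median -0.50), where 2.16% of all genes were called lower. Nid2, nidogen-2, which links laminin to type IV collagen, fell by 1.95 ± 0.17 (edgeR adjusted p = 0.00118), from 103.9 to 27.3 CPM, and by 2.54 ± 0.23 (adjusted p = 0.00389), from 116.5 to 19.97 CPM. Tinagl1 fell by 0.97 ± 0.19 (adjusted p = 0.0181) and 1.35 ± 0.28 (adjusted p = 0.0441). Npnt, nephronectin, an integrin ligand, fell by 0.90 ± 0.20 (adjusted p = 0.03) and 1.10 ± 0.21 (adjusted p = 0.0311). Under low stretch Col18a1 (-0.64, adjusted p = 0.0338), Hspg2 or perlecan (-0.63, adjusted p = 0.0283) and the laminin chain Lama5 (-0.58, adjusted p = 0.0162) also fell, as did Lamc1 (-0.56, adjusted p = 0.00776), which is named because it completes the count. None of these 4 passed under high stretch in the main fit. Under other settings Col18a1 passed there in 5 of 7, with adjusted p from 0.01315 to 0.0929 by edgeR or DESeq2, and 0.0147 with the block. Hspg2 and Lama5 passed there in 0 of 7. In the main fit the difference between the comparisons passed for 0 genes.

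Proteases and their inhibitors moved upward where they passed, with 2 of 9 tested higher under low and 2 of 8 under high stretch (medians 0.42 and 0.38). Timp1, an inhibitor of metalloproteinases, rose by 0.81 ± 0.19 (edgeR adjusted p = 0.0398) and 1.21 ± 0.25 (adjusted p = 0.0441), from 27.0 to 48.2 and from 57.0 to 132.8 CPM. Bmp1, a procollagen proteinase, rose under low stretch by 0.62 ± 0.15 (adjusted p = 0.0374). Mmp10 rose under high stretch by 3.69 ± 0.59 (adjusted p = 0.0185), from 0.0983 to 1.22 CPM. Only 2 of its 3 unstretched samples were above the low-count cutoff of 0.0449 CPM, against 3 of 3 stretched ones, so Mmp10 entered that test through the group where it was high.

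These calls depended on the samples and on the block. With 1 sample left out in turn, of 9 fits of low stretch, Nid2 and Ddr2 passed in 9, Loxl2, Tinagl1 and Lama5 in 7, P3h2 in 6, Npnt in 5, P3h1, Bmp1 and Hspg2 in 4, Col18a1 and Loxl4 in 3, and Timp1 in 2. Of 6 fits of high stretch, Nid2 passed in 5 and Mmp10 in 3. There Loxl2, Loxl4, Npnt, P3h2, Timp1, Itga1 and Wt1 passed in 2, and Ddr2 and Tinagl1 in 1. With the run of sample codes as a block, 28.2% of all genes were called under low stretch. Of the modifying enzymes 3 then rose and 4 fell, of the folding genes 1 rose and 1 fell, and of the cross-linking genes 3 rose and 1 fell. Of the receptors 2 rose and 3 fell, of the basement membrane partners 9 fell and 0 rose, and of the proteases and inhibitors 4 rose and 1 fell. Under high stretch, where the block called 8.35% of all genes, 4 basement membrane partners fell and 0 rose, and 3 proteases or inhibitors rose and 0 fell. There 1 modifying enzyme rose and 1 fell, 2 cross-linking genes rose and 1 fell, 1 receptor rose and 2 fell, and 0 folding genes passed.

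Of 10 regulators of the chains, 0 passed under low stretch and 1 fell under high stretch. That was Wt1, a podocyte transcription factor, by 2.36 ± 0.45 (edgeR adjusted p = 0.0311), from 2.81 to 0.548 CPM. Lmx1b, the homeodomain factor that is known to act on Col4a3 and Col4a4 in podocytes, stood at -0.36 ± 0.30 (adjusted p = 0.489) and -0.41 ± 0.30 (adjusted p = 0.675). With the run block 3 regulators rose and 3 fell under low stretch, where Lmx1b had -0.35 (adjusted p = 0.0175) and Wt1 -1.25 (adjusted p = 0.000894), and each low-stretch sample of Lmx1b lay below the unstretched sample of its run. Under high stretch 0 rose and 1 fell with the block. These changes accompanied a lower summed level of the 7 tubular markers, at 1207 to 1609 CPM unstretched and 637.7 to 1003 CPM under low stretch, and at 1252 to 1432 and 498.1 to 600.9 CPM in experiment 2, carried by Lrp2 and Cdh16. Only 3 tubular markers were tested, and in each comparison 1 had a positive and 2 a negative log2 fold change. With the run block 1 of them rose and 2 fell under low stretch. The parietal epithelial sum was 440.6 to 526.6 and 486.3 to 785.8 CPM in experiment 1 and 581.6 to 643.4 and 621.2 to 674.9 CPM in experiment 2. The mesangial sum, mostly Acta2, was 1336 to 2050 and 1704 to 4100 CPM, then 2703 to 7123 and 6868 to 10570 CPM. The list did not move as 1: of its 5 markers tested, 2 had a positive and 3 a negative log2 fold change under low stretch. Under high stretch 3 were positive and 2 negative. Of the podocyte markers, 1 of 12 tested was called lower under low and 2 of 11 under high stretch, with 0 higher. Of all genes tested, 3.6% and 2.16% were called lower. The marker sums were set beside the chains as a description. Their part in the chain results was not tested, and in these bulk samples fewer cells expressing a chain and less RNA per cell cannot be told apart.

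**Figure D5:**
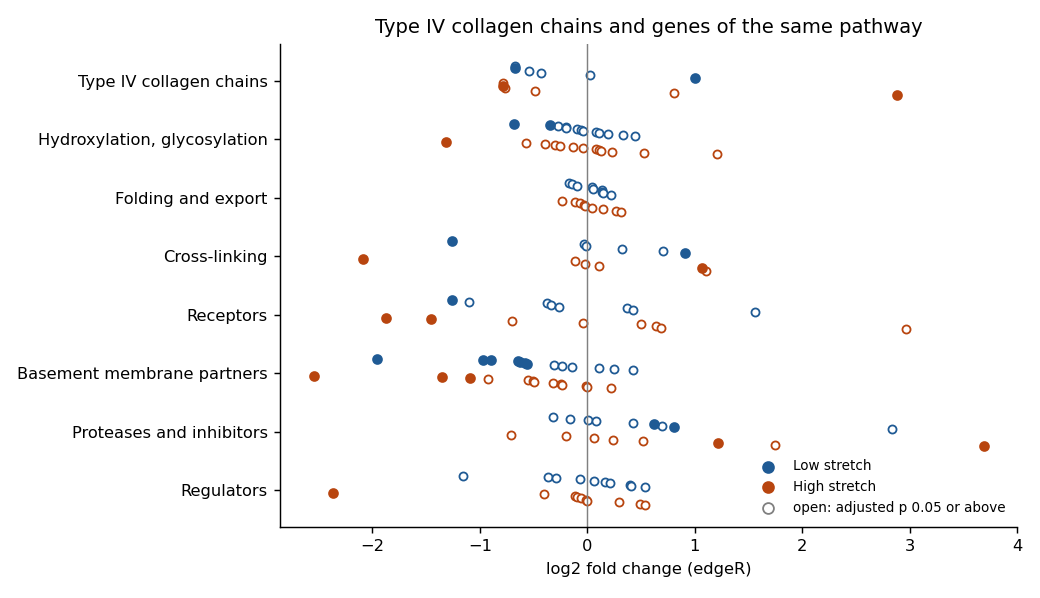
Log2 fold change (stretched against own unstretched samples, edgeR) of the listed genes around type IV collagen, by role, for both comparisons; each point is a gene, filled where its adjusted p is under 0.05. Basement membrane partners lie mostly below 0, with medians of -0.57 and -0.50.

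Genes whose levels ran most alike with a chain were listed by Pearson r of log2 CPM over the 15 samples, after each experiment's mean was subtracted. For Col4a1 they were Col4a2 (0.959), Lama5 (0.95), Mzf1 (0.945), Etohd2 (0.934) and Col2a1 (0.928). For Col4a5 they were Ctbp2 (0.99), Fras1 (0.977), Cysltr1 (0.976), Il6st (0.976) and Plekhh2 (0.975). For Col4a3 they were Col7a1 (0.955), Gnb4 (0.949), Ghr (0.943), Slc20a1 (0.943) and Zfp7 (0.937). Col4a4 had looser company, led by Slit1 (0.862), Tmem95 (0.832) and Myo7a (0.83), and its r with Col4a3 was 0.63. Col4a3 ran opposite to Col4a1, with an r of -0.75. The samples share their libraries and stretch groups, so these values describe likeness only.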

How the data were processed

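Poly(A) RNA libraries made with a strand-marking kit were sequenced as paired ends, per the labels' protocols. The authors deposited a table of raw gene counts and a table of transcript TPM. The submitters' processing notes name STAR 2.7.5c, featureCounts, Subread 2.0.0, DESeq2 1.38.3, Salmon 1.9.0 and build mm39, without giving each a role. Column names were matched to sample labels. Counts were tested as deposited in edgeR 4.0.16 under R 4.3.3: trimmed-mean scaling, the low-count filter filterByExpr, a quasi-likelihood fit per comparison with group as the only term, and Benjamini-Hochberg adjustment over all genes tested, with 0.05 as threshold. Gene TPM is the sum over a gene's transcripts; gene and transcript names came from GENCODE M21, which matched 137189 of 140789 transcripts (at least 99.12% of TPM). Usage was tested with limma 3.58.1, with a pseudocount of 0.1 TPM, for transcripts at 0.05 to 0.95 of a gene with a mean of at least 1 TPM. The statistics were tested on simulated data. Alternatives were DESeq2 1.42.0, other size factors and filters, 1 fit of all samples, blocks and leaving out each sample.

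The members and lists were chosen with earlier results of these data known. All 6 chains were reported whatever their values; of each list the text names genes with an adjusted p under 0.05 in either stretch comparison, at most the 6 with the largest log2 fold change per list and comparison, and Lmx1b, Pxdn, Serpinh1 and Plod2 in any case. The 5 genes most like Col4a1, Col4a3, Col4a4 and Col4a5 were taken among genes with a mean of at least 1 CPM. The level of 1 gene on the podocyte marker list is not reported here.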

Additional observations from a re-analysis of the deposited data

How the results depend on the processing

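Under low stretch, where 2 chains passed, 5 passed with DESeq2, 5 with the run of sample codes as a block, 1 with all 15 samples in 1 fit, and between 0 and 4 when 1 sample was left out. Under high stretch, where 2 passed, 4 passed with DESeq2, 3 with all 15 samples in 1 fit, 1 with DESeq2's size factors in edgeR, 1 with a mean count of at least 100 (which leaves Col4a3 untested), and between 0 and 4 with 1 sample left out. Col4a3 is among the 2 of the main fit, which it entered through the group where it was high. Between unstretched groups 3 chains passed, and 2 to 5 with 1 sample left out. Over all genes, 1181 were called under low stretch but 2694 by DESeq2, 640 in the fit of all samples, 6106 with the run block and 220 to 1630 with 1 sample left out. For high stretch 643 became 1321 by DESeq2, 1050 with no filter, 414 with the mean count minimum, 1488 in the fit of all samples and 14 to 1421 with 1 sample left out. For the difference 0 became 3 with the run block. For usage 5 transcripts under low stretch became 1 to 91 under the other settings, and 0 under high stretch became 7 with no filter, 43 with a pseudocount of 1 TPM, 250 in the fit of all samples and 22 without unstretched replicate 3; no chain transcript was among the calls of any of these.

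The replicate numbers are not stated to pair the samples. Correlations of deviations between same-numbered samples were 0.361, -0.136 and -0.437 in experiment 1. In experiment 2, where the number also marks the run, they were -0.159, 0.448 and 0.242. Within the runs of experiment 1 the mean correlations were 0.304, 0.432 and 0.451. So few values cannot decide whether samples were paired. With the replicate block 1 chain passed under low stretch (Col4a6; low-stretch replicates 4 to 6 have no partner and were left out) and 3 under high stretch, where it is the same fit as the run block, with 490 and 1546 genes called. Col4a3, among those 3, entered that fit through the group where it was high. In the difference between stretch effects the replicate block turned Col4a5 to 0.021 and Col4a6 to 0.22.

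Col4a4 under low stretch was -0.0034 with the run block and between -0.16 and 0.14 with 1 sample left out. In the difference between effects, leaving out 1 sample gave -0.18 to 0.019 for Col4a1 and -0.26 to 0.044 for Col4a5. The log2 ratio of the pair to the glomerular chains changed by -0.68 and -1.89 without Col4a5, and by -0.039 to 0.33 under high stretch with 1 sample left out. The cause was not tested. Over the 4 contrasts, 130 of 153 chain fold changes under other settings and 183 of 216 with 1 sample left out kept their direction and their side of the threshold. Those counts include the difference contrast, where no chain passed under any setting. The chains called under stretch held less often with 1 sample left out. Col4a3 passed in 2 and Col4a5 in 6 of 9 fits of low stretch. Col4a3 passed in 4 and Col4a6 in 1 of 6 fits of high stretch. At 5 to 25 counts in unstretched cells of experiment 2, the fold change of Col4a3 is limited by counting.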
